A study of Homo sapiens with 9 samples.

Results

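A20, the product of TNFAIP3, was followed with the proteins that work with it and with related deubiquitinases. The genes were chosen by name, with earlier results of these data known. They were TNFAIP3, its adaptors TNIP1, TNIP2 and TAX1BP1, the ubiquitin ligases ITCH and RNF11, and the deubiquitinases CYLD, OTULIN and OTUD7B. These are 9 of the 58735 genes of the expression table, and all 9 passed the filter on low values. mRNA of HCT116, a human cell line established from a colorectal carcinoma, was sequenced in 3 groups of 3 libraries. The A20-WT cells were wild type, the A20-KO cells had been made A20 knockouts, and the A20-OE cells were A20-KO cells in which A20 had been put back. The study's methods describe guide RNAs in the lentiviral vector LentiCRISPR v2, puromycin selection, and a vector for tagged A20 behind a CMV promoter. The sources used here do not say whether that vector made the A20-OE cells, which guide made the sequenced cells, whether they were a clone or a pool, or whether the A20-WT cells carried a control vector. Nor do they say whether the libraries of a group came from separate cultures, so p-values measure only the spread between these libraries, which may be technical.

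A20 is both a deubiquitinase of the OTU (ovarian tumor) family and a zinc finger protein that binds ubiquitin chains, and it is known as a brake on NF-κB signalling and on cell death. NF-κB itself switches TNFAIP3 on, so the gene is part of a feedback loop. Adaptors that bind ubiquitin bring A20 to its substrates, ITCH and RNF11 act with it in a ubiquitin-editing complex, and CYLD, OTULIN and OTUD7B remove ubiquitin chains from overlapping sets of signalling proteins.

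Reads per library ranged from 23406222 to 24963691. Values are FPKM, fragments per kilobase of gene scaled between libraries, which lets genes be set side by side within a library. Mitochondrial genes took 7.52% to 10.1% of the reads in A20-WT, 9.18% to 11.9% in the A20-KO-labelled libraries and 12.0% to 14.0% in A20-OE. The 5 epithelial markers summed to at least 1089 FPKM in every library, and the 4 leukocyte and 2 endothelial markers summed to at most 0.385 and 0.337 FPKM. The 3 fibroblast markers summed to 4.60 to 5.84 FPKM in A20-WT, 12.5 to 15.0 FPKM in the A20-KO-labelled libraries and 11.0 to 12.3 FPKM in A20-OE, nearly all of it COL1A1, while COL1A2 was at 0 in 8 of the 9 libraries. In bulk RNA of this kind, fewer cells of a type and less RNA per cell cannot be told apart.

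The sequences below are shown because they place the knockout and the feedback loop on the gene. TNFAIP3 (ENSG00000118503) lies on the plus strand of chromosome 6, at 137867188 to 137883312 on GRCh38, the build whose GENCODE 29 gene coordinates the table carries. Both guides are written 5′ to 3′, with the bases that match the TNFAIP3 transcripts in capitals.
guide 1: GGGACTTTGCGAAAGGATCG
guide 2: GAGGCAATTGCCGTCACctg
All 20 bases of guide 1 matched the plus strand at chr6:137867461-137867480, in exon 1 of 9, in the 5′ UTR, and the next 3 bases there are CGG. The coding sequence starts downstream of it, at 137871228, so guide 1 lies outside the coding sequence. Of guide 2, the first 17 bases matched the minus strand at chr6:137874845-137874861, the start of exon 3 of 9, over codons 99 to 104. Its last 3 bases would fall in the intron before that exon, which was not analysed here.

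The second stretch comes from the RefSeq promoter of TNFAIP3 (GRCh38.p14), plus strand, chr6:137867192-137867213, positions -67 to -46 from the RefSeq start site. It is also inside exon 1 of the longer GENCODE 29 gene model. Capitals mark 2 matches to the 10-base NF-κB consensus, which was searched on both strands in the 250 bases before each start, and both matches read on the minus strand.
TNFAIP3 promoter: GGAAAGTCCCgtGGAAATCCCC
A match of this kind was present in 9.96% of the 35116 promoters searched. Of the 13 listed promoters of the 9 genes, 3 held a match, each of a different gene: TNFAIP3, TNIP1 (at position -42 from 1 of its 2 starts) and CYLD (at position -189 from 1 of its 3 starts). A match describes the letters only and is not a measured binding site.

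The knockout label was not matched by a loss of TNFAIP3 mRNA. It was at 0.869, 0.800 and 0.736 FPKM in A20-WT, at 1.93, 2.16 and 1.04 FPKM in the A20-KO-labelled libraries, and at 58.7, 66.5 and 56.5 FPKM in A20-OE. All 3 A20-KO-labelled libraries lay above all 3 A20-WT libraries, the third of them only narrowly, and the A20-OE libraries stood far above both. The group means were 0.802 ± 0.0665 FPKM, 1.71 ± 0.593 FPKM and 60.6 ± 5.25 FPKM (SD, n = 3 each). The lowest A20-KO-labelled library held 122 TNFAIP3 reads (95% Poisson interval 101 to 146) and the highest A20-WT library held 109 (89.5 to 131), so these overlap within counting error, the only error these intervals cover. Reads on the gene were counted over all its exons. They cannot show a small change at a guide site and cannot separate the cell's own transcript from one made by a vector, so the level does not test loss of the A20 protein. The study reports A20 levels of its knockout and rescue cells in a figure panel that was not examined here.

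TNFAIP3 rose in the A20-KO-labelled libraries against A20-WT, with a log2 fold change of 0.95 (SE 0.23, limma adjusted p = 0.0182) and a fold of 1.93. This call was lost in a fit of only these 2 groups (adjusted p = 0.083), and it was lost without A20-WT replicate 2 (0.0544) and without replicates 1 or 2 of the A20-KO-labelled group (0.0701 and 0.057). Without replicate 3 of the A20-KO-labelled group, the lowest of them, the log2 fold change was 1.25 (adjusted p = 0.00138), and over all 9 fits that left out a library it ran from 0.75 to 1.25. From the A20-KO-labelled libraries to A20-OE the gene rose 34.9-fold (log2 fold change 5.13, 95% interval 4.61 to 5.64, limma adjusted p = 2.13e-05). Against A20-WT the rise in A20-OE was 67.2-fold (log2 fold change 6.07, limma adjusted p = 1.99e-06). Both calls held in all 19 alternatives, and A20-OE was far above the wild-type level of the mRNA. Among these alternatives, here and below, median-of-ratios scaling repeats the main fit and cannot change a call. Because 0.1 was added to FPKM before taking log2, folds of low genes are understated. The exact two-sided permutation p of each single comparison without overlap was 0.1, the smallest that 3 libraries against 3 allow.

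**Figure D1:**
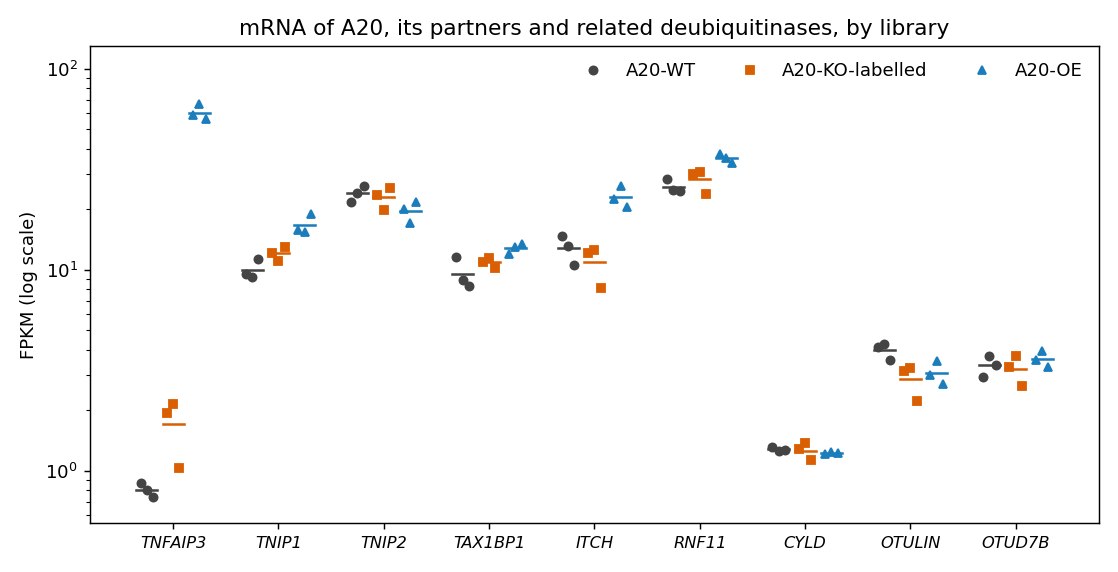
FPKM (log axis) of the 9 genes in each library, with A20-WT, the A20-KO-labelled libraries and A20-OE as separate points and lines at the group means. TNFAIP3 moves from 0.802 FPKM in A20-WT to 60.6 FPKM in A20-OE, while CYLD lies between 1.13 and 1.37 FPKM.

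The comparisons share libraries, so their values are given side by side. Among the 9 genes, 1 passed the test (adjusted p under 0.05 over the 21636 genes tested) in the A20-KO-labelled libraries against A20-WT, TNFAIP3, a share of 11.1% where 22.3% of all tested genes passed, 11.3% as higher and 11% as lower. In A20-OE against the A20-KO-labelled libraries 3 passed, TNFAIP3, TNIP1 and ITCH, all higher, a share of 33.3% where 8.97% of all tested genes passed, 4.43% as higher and 4.54% as lower. In A20-OE against A20-WT 5 passed, TNFAIP3, TNIP1, TAX1BP1, ITCH and RNF11, all higher, a share of 55.6% where 31.1% of all genes passed, 15.7% as higher and 15.4% as lower. TNFAIP3 was the gene put back in A20-OE, so its calls in both A20-OE comparisons were set by the design. These shares, and the member counts and medians below, include it. All 9 genes averaged at least 1 FPKM over the libraries, while the shares over all genes cover means down to 0.1 FPKM. Shares among genes of like level were not taken, here or for the counts of non-overlap below. With 1 library left out, the genes passing in A20-OE against the A20-KO-labelled libraries ran from 454 (without A20-OE replicate 1) to 3237 (without A20-WT replicate 1), beside 1940 with all 9. None of the 9 passed as lower in limma in any of the 3 comparisons, and at an unadjusted p under 0.05 the members past it numbered 2, 4 and 6 in either direction. The share of all genes at that rule was not taken, so these counts have no background. With limma-voom on the recovered reads the members that passed numbered 2, 3 and 5, beside 5654, 2518 and 7384 of the 21636 genes tested. Under the study's added threshold of a 2-fold change, TNFAIP3 and ITCH passed in A20-OE against the A20-KO-labelled libraries (2.39% of all genes), TNFAIP3 passed in A20-OE against A20-WT (11.9%), and no member passed in the A20-KO-labelled libraries against A20-WT (6.99%). The median log2 fold change of the 9 genes was -0.03, 0.23 and 0.43 in that order of comparisons, against -0.01, 0.01 and 0.03 over all tested genes.

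**Figure D2:**
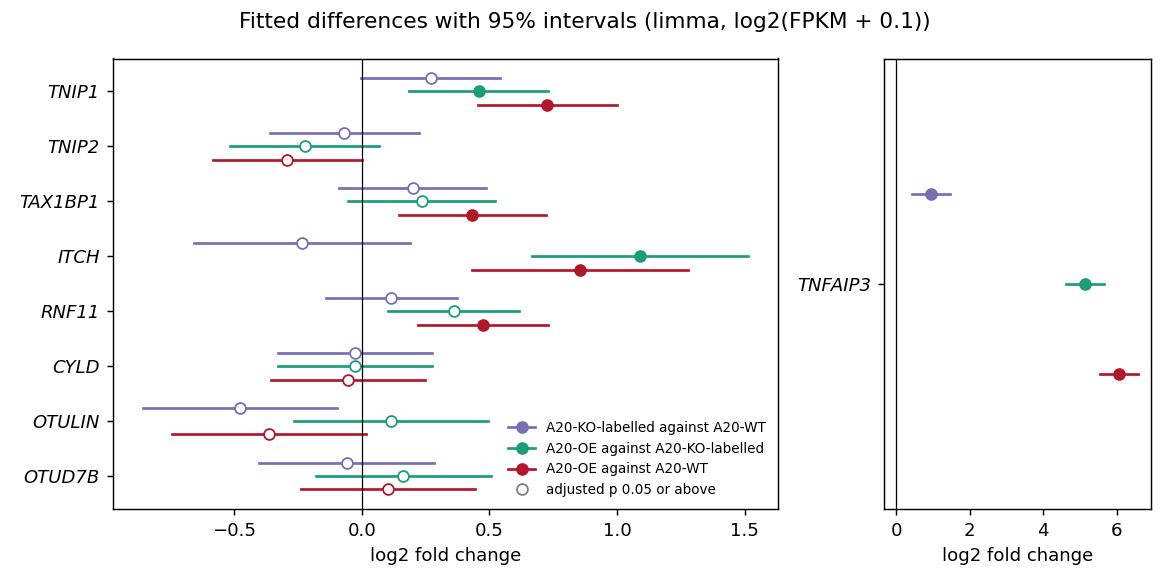
Fitted log2 fold change of each of the 9 genes with its 95% interval in the 3 comparisons, filled where the adjusted p was under 0.05. ITCH sits at 1.09 in A20-OE against the A20-KO-labelled libraries and at -0.24 in those libraries against A20-WT, and the intervals of CYLD and OTUD7B span 0 throughout.

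Of the adaptors, TNIP1 and TAX1BP1 rose in A20-OE against A20-WT and TNIP2 gave no call. TNIP1 (ABIN-1, ENSG00000145901; chromosome 5, 151029945 to 151093577, minus strand) encodes a ubiquitin-binding protein that recruits A20 to its targets. It was at 9.51, 9.26 and 11.3 FPKM in A20-WT, at 12.2, 11.1 and 13.0 FPKM in the A20-KO-labelled libraries, and at 15.7, 15.4 and 18.9 FPKM in A20-OE. The A20-OE libraries lay above every other library, whereas A20-WT and the A20-KO-labelled libraries overlapped. TNIP1 rose 1.66-fold in A20-OE against A20-WT (log2 fold change 0.73, limma adjusted p = 0.00193), a call held in all 19 alternatives. Against the A20-KO-labelled libraries it rose 1.37-fold (log2 fold change 0.46, limma adjusted p = 0.0482), a value close to the threshold. That call stood when A20-WT replicate 1 or 3 was left out and was lost without A20-WT replicate 2 or any library of the groups compared, with adjusted p from 0.072 to 0.129. In the A20-KO-labelled libraries against A20-WT the log2 fold change was 0.27 (SE 0.12, adjusted p = 0.146).

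TNIP2 (ABIN-2, ENSG00000168884; chromosome 4, 2741648 to 2756376, minus strand) is a related adaptor that also binds the kinase TPL2. Its levels were 21.9, 24.0 and 26.1 FPKM in A20-WT, 23.6, 19.8 and 25.4 FPKM in the A20-KO-labelled libraries, and 20.1, 17.1 and 21.7 FPKM in A20-OE. The A20-OE libraries were all below the A20-WT libraries by a narrow gap, and the A20-KO-labelled libraries overlapped both. The log2 fold change in A20-OE against A20-WT was -0.29 (95% interval -0.58 to -0.00, limma adjusted p = 0.119), which passed when values were scaled to total reads (-0.36, adjusted p = 0.0329). The A20-KO-labelled libraries differed from A20-WT by -0.07, with a 95% interval from -0.36 to 0.22.

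TAX1BP1 (ENSG00000106052, chromosome 7, 27739331 to 27844564, plus strand) encodes an adaptor that links A20 to ubiquitinated substrates and also serves as an autophagy receptor. It was at 11.5, 8.88 and 8.30 FPKM in A20-WT, at 11.0, 11.5 and 10.3 FPKM in the A20-KO-labelled libraries, and at 12.0, 13.0 and 13.5 FPKM in A20-OE. The A20-OE libraries were above all others, and A20-WT replicate 1 stood apart from the other A20-WT libraries, at the level of the highest A20-KO-labelled library. TAX1BP1 rose 1.35-fold in A20-OE against A20-WT (log2 fold change 0.43, limma adjusted p = 0.0299). The call was lost under scaling to total reads (0.37, adjusted p = 0.0693) and on leaving out A20-WT replicate 2 or 3, replicate 1 of the A20-KO-labelled group, or any A20-OE library, with adjusted p up to 0.0977. Between the A20-KO-labelled libraries and A20-WT the log2 fold change was 0.20 (adjusted p = 0.308), and without A20-WT replicate 1 it was 0.34 and passed (adjusted p = 0.0289). The gene shares 415 exonic bases with JAZF1 on the opposite strand, 4.53% of its length, and JAZF1 had at most 135 reads in a library. The sources used here do not say whether reads were counted by strand.

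Of the ligases, ITCH had the larger rise in A20-OE. ITCH (ENSG00000078747, chromosome 20, 34363235 to 34511393, plus strand) encodes a HECT-type ubiquitin ligase of the NEDD4 family that acts with A20 and TAX1BP1. It was at 14.7, 13.1 and 10.6 FPKM in A20-WT, at 12.1, 12.6 and 8.16 FPKM in the A20-KO-labelled libraries, and at 22.6, 26.2 and 20.6 FPKM in A20-OE. Every A20-OE library was well above the other 6, which overlapped with each other. ITCH rose 2.13-fold in A20-OE against the A20-KO-labelled libraries (log2 fold change 1.09, SE 0.19, limma adjusted p = 0.0114). Without A20-OE replicate 1 or 2 the adjusted p was 0.0548 and 0.0604, with log2 fold changes of 1.10 and 1.00. Against A20-WT it rose 1.81-fold (log2 fold change 0.85, limma adjusted p = 0.00799), a call held in all 19 alternatives. The A20-KO-labelled libraries against A20-WT gave a log2 fold change of -0.24 (95% interval -0.66 to 0.19).

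RNF11 (ENSG00000123091, chromosome 1, 51236271 to 51273455, plus strand) encodes a small RING-finger ligase of the A20 complex. It was at 28.2, 24.9 and 24.6 FPKM in A20-WT, at 29.9, 30.7 and 23.9 FPKM in the A20-KO-labelled libraries, and at 37.6, 36.2 and 34.2 FPKM in A20-OE. The A20-OE libraries were again the highest, and replicate 3 of the A20-KO-labelled group lay below every A20-WT library while the other libraries of its label lay above them. RNF11 rose 1.39-fold in A20-OE against A20-WT (log2 fold change 0.47, limma adjusted p = 0.0119), with an adjusted p of 0.0519 without A20-OE replicate 1. Against the A20-KO-labelled libraries the log2 fold change was 0.36 (adjusted p = 0.0839).

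The other deubiquitinases gave no call. CYLD (ENSG00000083799, chromosome 16, 50742050 to 50801935, plus strand), a tumor suppressor that trims ubiquitin chains in NF-κB signalling, was at 1.32, 1.26 and 1.27 FPKM in A20-WT, at 1.28, 1.37 and 1.13 FPKM in the A20-KO-labelled libraries, and at 1.22, 1.24 and 1.23 FPKM in A20-OE. Its A20-OE values sat just under those of A20-WT with no overlap, and the A20-KO-labelled libraries spread across both. The log2 fold changes were -0.03 in the A20-KO-labelled libraries against A20-WT (95% interval -0.33 to 0.27), -0.03 in A20-OE against the A20-KO-labelled libraries, and -0.06 in A20-OE against A20-WT (-0.36 to 0.25). These intervals leave room for changes of a size that the test cannot call.

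OTULIN (ENSG00000154124, chromosome 5, 14664664 to 14699711, plus strand) encodes the deubiquitinase specific for linear ubiquitin chains. It was at 4.14, 4.26 and 3.55 FPKM in A20-WT, at 3.13, 3.23 and 2.22 FPKM in the A20-KO-labelled libraries, and at 2.98, 3.53 and 2.72 FPKM in A20-OE. All A20-WT libraries were above all the others, though the lowest A20-WT library and the highest A20-OE library nearly met. The log2 fold change was -0.48 in the A20-KO-labelled libraries against A20-WT (SE 0.17, 95% interval -0.86 to -0.10, limma adjusted p = 0.073) and -0.37 in A20-OE against A20-WT (adjusted p = 0.136). The first passed with limma-voom (-0.49, adjusted p = 0.035) and among genes with a mean of at least 1 FPKM (adjusted p = 0.0472), so OTULIN lies at the threshold. Between the A20-KO-labelled libraries and A20-OE the log2 fold change was 0.11 (adjusted p = 0.724), and it turned to -0.05 without replicate 3 of the A20-KO-labelled group.

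OTUD7B (Cezanne, ENSG00000264522; chromosome 1, 149937812 to 150010676, minus strand) is an OTU deubiquitinase with an A20-type zinc finger. It was at 2.94, 3.71 and 3.37 FPKM in A20-WT, at 3.28, 3.73 and 2.65 FPKM in the A20-KO-labelled libraries, and at 3.57, 3.93 and 3.27 FPKM in A20-OE. It was the only one of the 9 genes whose groups overlapped in all 3 comparisons, with log2 fold changes of -0.06, 0.16 and 0.10 (adjusted p = 0.822, 0.545 and 0.659).

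Counting genes whose groups do not overlap, 1 of the 9 was higher and 1 lower in the A20-KO-labelled libraries against A20-WT, where 19.3% of all tested genes were higher in this way and 18.9% lower. In A20-OE against the A20-KO-labelled libraries 5 of 9 were higher and no gene was lower, against 17.4% and 18% of all tested genes. In A20-OE against A20-WT 5 were higher and 3 lower, against 23.6% and 21.8%. The 5 higher genes were TNFAIP3, TNIP1, TAX1BP1, ITCH and RNF11 in both A20-OE comparisons, which share the A20-OE libraries. TNFAIP3, the gene put back in A20-OE, was among them by design. Replicate 3 of the A20-KO-labelled group was the lowest of its group for 7 of the 9 genes, where 37.3% of all tested genes were lowest in it, and its mitochondrial share was the highest of its group at 11.9%. The mitochondrial share was also highest in A20-OE, the group where these 5 genes were highest. Its part in these results was not tested.

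The level of TNFAIP3 relative to its partners differed widely between groups. In A20-WT the order of mean FPKM was RNF11, TNIP2, ITCH, TNIP1, TAX1BP1, OTULIN, OTUD7B, CYLD and TNFAIP3. The library ranges overlapped for RNF11 and TNIP2, for ITCH and TNIP1, for TNIP1 and TAX1BP1, and for OTULIN and OTUD7B. Ranges that overlap leave the order within single libraries open. OTULIN was above OTUD7B in every A20-WT library and below it in every A20-KO-labelled and A20-OE library. In the A20-KO-labelled libraries the order was RNF11, TNIP2, TNIP1, ITCH, TAX1BP1, OTUD7B, OTULIN, TNFAIP3 and CYLD, with overlap between all neighbours except TNIP2 and TNIP1, TAX1BP1 and OTUD7B, and OTULIN and TNFAIP3. In A20-OE it was TNFAIP3, RNF11, ITCH, TNIP2, TNIP1, TAX1BP1, OTUD7B, OTULIN and CYLD, with overlap of ITCH with TNIP2, TNIP2 with TNIP1, and OTUD7B with OTULIN. Within each A20-OE library TNIP2 was above TNIP1. By group mean TNFAIP3 stood at place 9, 8 and 1 of the 9, and kept these places with each library left out. It also kept them under every scaling, but scaling multiplies all genes of a library alike. It cannot reorder genes within a library, so it hardly tests these places.

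Summed over the other 8 genes, FPKM was 89.1 to 94.2 in A20-WT, 86.7 to 96.4 in the A20-KO-labelled libraries and 115.8 to 116.5 in A20-OE. The ratio of TNFAIP3 FPKM to that sum had a mean of 0.00881 in A20-WT, 0.0183 in the A20-KO-labelled libraries and 0.522 in A20-OE. TNFAIP3 was far below each adaptor in A20-WT, at a mean of 0.0810 of TNIP1, 0.0338 of TNIP2 and 0.0847 of TAX1BP1. In A20-OE the same ratios were 3.68, 3.14 and 4.73, so TNFAIP3 FPKM exceeded that of each adaptor in that group. FPKM divides by the whole gene model of 5051 bases, UTRs included, and how much of it the introduced A20 transcript covers is not given in the sources used here, so its level and ratios in A20-OE may be understated. It also exceeded those of the ligases there, at 2.63 times ITCH and 1.68 times RNF11. CYLD was the deubiquitinase nearest to it in mean level in A20-WT and in the A20-KO-labelled libraries. Against CYLD the mean ratio was 0.625 in A20-WT, 1.33 in the A20-KO-labelled libraries and 49.3 in A20-OE. In the A20-KO-labelled libraries it ran from 0.920 to 1.57, and in replicate 3 TNFAIP3 was below CYLD (1.04 and 1.13 FPKM). These are ratios of mRNA levels per length and not of proteins.

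Around these genes, 7 lists of 58 other genes, written with earlier results of these data known, were read. Of the 58, 55 passed the filter on low values. Of these, 11 rose and 3 fell in the A20-KO-labelled libraries against A20-WT, together 25.5% of those tested beside 22.3% of all genes. Of the 55, 6 rose and 3 fell in A20-OE against the A20-KO-labelled libraries, 16.4% beside 8.97%. Against A20-WT 17 rose and 8 fell in A20-OE, 45.5% beside 31.1%. The middle count, 9 genes in all, was 16 without A20-WT replicate 1, 4 and 5 without replicates 1 and 3 of the A20-KO-labelled group, and 3, 4 and 5 without A20-OE replicates 1, 2 and 3. Of these calls, 13 of 14, 3 of 9 and 17 of 25 were kept in each of the 9 fits that left out a library. Most of the 55 averaged at least 1 FPKM, while the shares over all genes cover means down to 0.1 FPKM. Shares among genes of like level were not taken. Shares per list below follow the order of comparisons above, and no share over all genes was taken at an unadjusted p.

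Among the other OTU deubiquitinases (12 tested) 2 rose and 2 fell in the A20-KO-labelled libraries against A20-WT. OTUD1 was at 2.17, 2.81 and 3.11 FPKM in A20-WT, at 5.12, 5.23 and 4.96 FPKM in the A20-KO-labelled libraries and at 7.90, 6.44 and 7.85 FPKM in A20-OE, with no overlap between groups. Its log2 fold change was 0.91 in the A20-KO-labelled libraries against A20-WT (limma adjusted p = 0.00279) and 1.43 in A20-OE against A20-WT (0.000143). OTUD7A, the closest relative of OTUD7B, rose as well at a low level, from a highest A20-WT value of 0.324 FPKM to a lowest of 0.569 FPKM in the A20-KO-labelled libraries (log2 fold change 1.03, limma adjusted p = 0.00687). OTUD6B fell (-0.76, adjusted p = 0.00383), and so did OTUD4 (-0.61, adjusted p = 0.043), which was kept only without A20-WT replicate 3 or replicate 2 of the A20-KO-labelled group. Only 1 of the 12 passed in A20-OE against the A20-KO-labelled libraries. This was YOD1, a partner of the segregase p97, at 4.26, 4.47 and 3.63 FPKM in the A20-KO-labelled libraries and 10.8, 12.0 and 10.6 FPKM in A20-OE (log2 fold change 1.42, limma adjusted p = 0.00471). In A20-OE against A20-WT 3 rose and 1 fell. The shares that passed in the 3 comparisons were 33.3%, 8.33% and 33.3%, beside 22.3%, 8.97% and 31.1% of all tested genes.

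Among the NEDD4 family ligases and their adaptors (9 tested), 1 rose in the A20-KO-labelled libraries against A20-WT and 2 rose in A20-OE against those libraries. The shares that passed in the 3 comparisons were 11.1%, 22.2% and 33.3%, beside 22.3%, 8.97% and 31.1% of all tested genes. NDFIP1, a membrane adaptor that activates ITCH, rose in all 3 comparisons. It was at 23.7, 21.7 and 22.5 FPKM in A20-WT, at 36.5, 36.2 and 33.9 FPKM in the A20-KO-labelled libraries, and at 53.8, 53.2 and 55.1 FPKM in A20-OE. The 3 groups were well apart, and the log2 fold changes were 0.65, 0.60 and 1.25 (limma adjusted p = 0.000806, 0.00397 and 1.39e-05). The ligase SMURF1 rose in A20-OE against the A20-KO-labelled libraries (0.61, adjusted p = 0.0178, lost without any A20-OE library) and against A20-WT (0.61, adjusted p = 0.00419). NEDD4 itself fell in A20-OE against A20-WT (-0.64, adjusted p = 0.0244), a call kept in 4 of the 9 fits that left out a library and lost without A20-WT replicate 1 or 2 or any A20-OE library.

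Of the 5 autophagy receptors related to TAX1BP1, 2 rose in the A20-KO-labelled libraries against A20-WT and 3 rose in each comparison of A20-OE. The shares that passed in the 3 comparisons were 40%, 60% and 60%, beside 22.3%, 8.97% and 31.1% of all tested genes. CALCOCO1, a close relative of TAX1BP1, was at 3.03, 3.21 and 3.03 FPKM in A20-WT, at 7.48, 7.36 and 8.76 FPKM in the A20-KO-labelled libraries and at 11.5, 12.1 and 12.5 FPKM in A20-OE. OPTN (optineurin), a ubiquitin-binding receptor, was at 3.99, 3.54 and 3.12 FPKM, then 8.92, 8.88 and 8.26 FPKM, then 11.7, 11.9 and 12.5 FPKM in the same order. For both genes the 3 groups were fully separate. In the A20-KO-labelled libraries against A20-WT the log2 fold changes were 1.32 for CALCOCO1 (limma adjusted p = 0.000132) and 1.27 for OPTN (0.000181), and in A20-OE against A20-WT they were 1.93 and 1.74 (5.9e-06 and 1.37e-05). From the A20-KO-labelled libraries to A20-OE CALCOCO1 rose by 0.61 (adjusted p = 0.00935, kept with each library left out), while OPTN (0.46, adjusted p = 0.0318) and NBR1 (0.58, adjusted p = 0.0214) rose less firmly. OPTN was lost without any single library of the groups compared and without A20-WT replicate 2. NBR1 was lost without any single A20-OE library and without replicate 1 or 3 of the A20-KO-labelled group.

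Of the NF-κB feedback and pathway genes (9 tested), 4 rose and 1 fell in the A20-KO-labelled libraries against A20-WT. The shares that passed in the 3 comparisons were 55.6%, 22.2% and 77.8%, beside 22.3%, 8.97% and 31.1% of all tested genes. NFKBIA, which encodes the inhibitor IκBα, was at 6.82, 8.97 and 10.7 FPKM in A20-WT, at 18.2, 17.0 and 18.3 FPKM in the A20-KO-labelled libraries, and at 20.2, 18.3 and 23.6 FPKM in A20-OE. BCL3, a nuclear partner of NF-κB dimers, was at 3.60, 4.44 and 5.90 FPKM, then 11.1, 10.4 and 13.2 FPKM, then 10.2, 9.36 and 11.1 FPKM. Both were higher in every A20-KO-labelled library and every A20-OE library than in any of A20-WT, while the A20-KO-labelled libraries and A20-OE overlapped for BCL3 and nearly met for NFKBIA. The log2 fold changes in the A20-KO-labelled libraries against A20-WT were 1.03 for NFKBIA (limma adjusted p = 0.00265), 1.31 for BCL3 (0.00124) and 0.95 for RELB (0.00714), the last encoding the NF-κB subunit RelB. In A20-OE against A20-WT NFKBIA stood at 1.24 and BCL3 at 1.15, and 4 of the 9 genes rose and 3 fell.

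NFKB1, which encodes p105 and p50, moved the other way. It was at 7.15, 7.74 and 7.56 FPKM in A20-WT, at 5.60, 5.33 and 4.59 FPKM in the A20-KO-labelled libraries, and at 3.51, 3.52 and 3.13 FPKM in A20-OE, again without overlap. It fell by 0.53 on the log2 scale in the A20-KO-labelled libraries against A20-WT (limma adjusted p = 0.00854) and by 1.12 in A20-OE against A20-WT (0.000111). Of the 9, 2 fell and no gene rose in A20-OE against the A20-KO-labelled libraries. These were NFKB1 (-0.59, adjusted p = 0.014, lost without replicate 1 of either group compared) and NFKBIB (-0.73, adjusted p = 0.0329, kept in 3 of the 9 fits that left out a library and lost without A20-WT replicate 2, any A20-KO-labelled library, or A20-OE replicate 1 or 2).

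**Figure D3:**
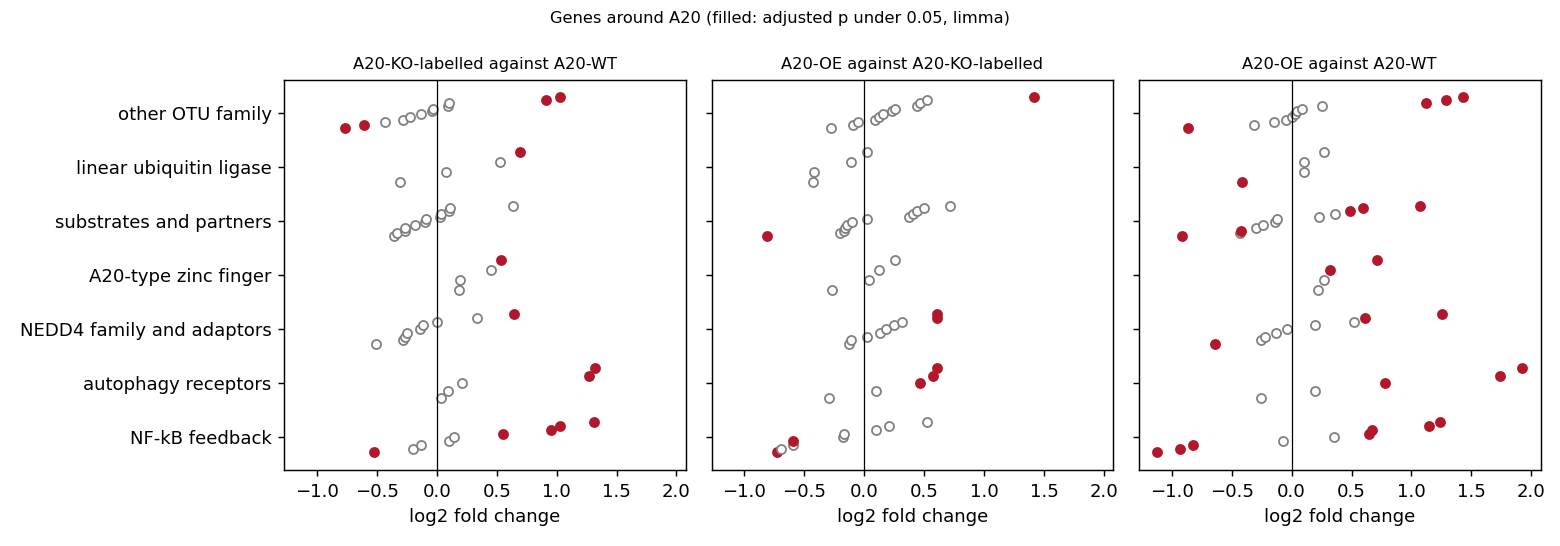
Log2 fold change of every tested gene of the 7 lists in the 3 comparisons, with filled points for genes that passed the test. The autophagy receptors CALCOCO1 and OPTN reach 1.93 and 1.74 in A20-OE against A20-WT, and among the substrates no gene passed in the A20-KO-labelled libraries against A20-WT.

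Of the 12 substrates of A20 and the ligases and conjugating enzymes it acts on, none passed limma's test in the A20-KO-labelled libraries against A20-WT, although 2 had an unadjusted p under 0.05 and 1 passed with limma-voom. RIPK1, the kinase on which A20 edits ubiquitin chains downstream of the TNF receptor, had a log2 fold change of 0.02 there (adjusted p = 0.885). TRAF2, an adaptor of the same receptor complex, fell in A20-OE against A20-WT (-0.92, limma adjusted p = 0.00524) and against the A20-KO-labelled libraries (-0.82, adjusted p = 0.0307). Its levels were 5.61, 8.48 and 10.0 FPKM in A20-WT, 6.93, 7.21 and 7.73 FPKM in the A20-KO-labelled libraries and 4.04, 4.28 and 3.97 FPKM in A20-OE. The A20-OE libraries were the lowest, but the A20-WT libraries were widely spread, and the second call was kept only without A20-WT replicate 1 or 3. BIRC3, the ligase cIAP2, rose in A20-OE against A20-WT (1.07, adjusted p = 0.00938) from a mean under 1 FPKM. In that comparison 3 of the 12 rose and 2 fell. The shares that passed in the 3 comparisons were 0%, 8.33% and 41.7%, beside 22.3%, 8.97% and 31.1% of all tested genes.

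The linear ubiquitin ligase complex LUBAC and the CYLD adaptor SPATA2 (4 tested) gave 1 rise in the A20-KO-labelled libraries against A20-WT, RBCK1, which encodes the LUBAC subunit HOIL-1 (log2 fold change 0.69, limma adjusted p = 0.00649). None passed limma's test in A20-OE against the A20-KO-labelled libraries, 2 had an unadjusted p under 0.05 and none passed with limma-voom. In A20-OE against A20-WT 1 fell, SPATA2 (-0.41, adjusted p = 0.0229), which was lost without A20-WT replicate 3 and without A20-OE replicate 1 or 2. Of the 4 other genes with an A20-type zinc finger, ZFAND3 rose in the A20-KO-labelled libraries against A20-WT (0.54, adjusted p = 0.00918), none passed in A20-OE against those libraries (1 at an unadjusted p under 0.05, none with limma-voom), and RABGEF1 and ZFAND5 rose in A20-OE against A20-WT (0.71 and 0.32, adjusted p = 0.0293 and 0.0359). RABGEF1 was lost without A20-WT replicate 1 or 2 or any A20-OE library. ZFAND5 was lost in 6 of the 9 fits that left out a library: A20-WT replicate 2 or 3, replicate 1 of the A20-KO-labelled group, or any A20-OE library. The shares that passed in the 3 comparisons were 25%, 0% and 25% for LUBAC with SPATA2. For the zinc finger genes they were 25%, 0% and 50%. Of all tested genes 22.3%, 8.97% and 31.1% passed.

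Near TNFAIP3 on chromosome 6, PERP and ARFGEF3 were the only genes within 300 kb that passed the filter on low values, and both were highest in A20-OE. PERP, which encodes a membrane protein of epithelial junctions, was at 80.6, 63.1 and 64.8 FPKM in A20-WT, at 88.2, 88.1 and 76.0 FPKM in the A20-KO-labelled libraries, and at 119, 116 and 127 FPKM in A20-OE. ARFGEF3 was at 1.78, 1.57 and 1.56 FPKM, then 1.92, 2.29 and 1.38 FPKM, then 4.64, 5.98 and 3.62 FPKM in the same order. For both genes the A20-OE libraries lay above all 6 others. Of all tested genes, 17.4% were higher without overlap in A20-OE against the A20-KO-labelled libraries, and 23.6% against A20-WT. The limma test called 4.43% and 15.7% of all tested genes higher in these comparisons. Whether the change is particular to this locus was not tested. PERP rose in A20-OE against A20-WT (log2 fold change 0.80, limma adjusted p = 0.00108) and against the A20-KO-labelled libraries (0.52, adjusted p = 0.0313, lost without any library of either group). ARFGEF3 rose by 1.45 against A20-WT (adjusted p = 0.00118) and by 1.30 against the A20-KO-labelled libraries (adjusted p = 0.0104, and 0.0541 without A20-OE replicate 1). The antisense gene AL357060.1, which overlaps the first exon of TNFAIP3 by 95 bases, had at most 14 reads in any library.

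By likeness over the 9 libraries, the genes whose log2 levels followed TNFAIP3 most closely among 10973 protein-coding genes with a mean of at least 1 FPKM were NPEPPS (Pearson r = 0.995), GPRC5A (0.994), ARRDC4 (0.994), HERC3 (0.993) and IGFBP3 (0.993). The points share their libraries and 3 groups, so r mostly describes how far A20-OE stood from the other groups, and no p is given. NPEPPS, a puromycin-sensitive aminopeptidase, was at 14.7 to 17.8 FPKM in A20-WT, 16.2 to 19.3 FPKM in the A20-KO-labelled libraries and 40.6 to 41.5 FPKM in A20-OE. IGFBP3, an insulin-like growth factor binding protein, was at 0.271 to 0.370, 0.413 to 0.684 and 3.68 to 4.11 FPKM. In each of these 2 genes A20-OE stood clear of the other groups. Among the 8 other members r was 0.91 for RNF11, 0.89 for ITCH, 0.88 for TNIP1, 0.78 for TAX1BP1 and 0.42 for OTUD7B, and it was -0.21 for CYLD, -0.26 for OTULIN and -0.73 for TNIP2. By r, RNF11 ranked 292, ITCH 412, TNIP1 455 and TAX1BP1 980 among the 10973 genes, so many other genes followed TNFAIP3 more closely.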

How the data were processed

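mRNA of 9 HCT116 libraries, selected by poly-A and read as 150 bp pairs, was aligned with HISAT2 2.0.5 and counted with featureCounts 1.5.0-p3, per the submitters' processing notes. The genome build is not given in the sources used here, but 99.9% of the gene coordinates match GENCODE 29 (GRCh38). The authors deposited FPKM per gene. The recovered reads were 0.950 to 1.07 times the depth these FPKM imply, so the values carry a factor between libraries other than the read total. Median-of-ratios scaling left them unchanged, so they were already on that scale. Groups and replicate numbers came from the labels.

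Divided by what 1 read is worth in its library, FPKM times gene length came out whole (tolerance 0.02) for 100% of the values above 0 in every library, which gave 23406222 to 24963691 reads per library. The 21636 genes whose FPKM averaged 0.1 or more were tested in R 4.3.3 with limma 3.58.1. The fit took log2(FPKM + 0.1), all 3 groups together, and allowed a variance trend. A gene passed at a Benjamini-Hochberg adjusted p under 0.05 over all genes tested. The study's threshold adds a log2 fold change beyond 1. Limma-voom on the recovered reads passed 5654 genes in the A20-KO-labelled libraries against A20-WT, 2518 in A20-OE against those libraries and 7384 in A20-OE against A20-WT.

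On simulated reads for the A20-KO-labelled libraries against A20-WT, limma recovered 68 of 100 genes changed 2-fold and 99 of 100 changed 4-fold among 21609 tested, with 14 other calls. The changed genes were drawn from well-covered genes only, and all genes were given the same fixed spread between libraries. Far fewer genes were changed than passed in the real comparison, so this recovery is not the power in these data. The members and gene lists were chosen with earlier results of these data known. The genes named are the 9 members, at most the 3 largest changes that passed per list and comparison, the genes within 300 kb of TNFAIP3 and the 5 most like it. OTUD4, RIPK1 and NFKB1 in the first comparison were named after their values were seen. Alternatives were pseudocounts of 1 and 0.01, no filter or a mean FPKM of at least 1, scaling by median of ratios or total reads, only 2 groups, a replicate block, no variance trend, limma-voom, and each library left out. The Poisson intervals of read numbers cover counting error only, since reads that carry no molecular identifier may be copies of 1 molecule.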

Additional observations from a re-analysis of the deposited data

How the results depend on the processing

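Of the single-gene calls, TNFAIP3 in both comparisons of A20-OE and TNIP1 and ITCH in A20-OE against A20-WT kept their direction and stayed past the threshold in all 19 alternatives. Values are log2 fold changes with adjusted p, and causes were not tested. With no filter or no variance trend, TNIP1 in A20-OE against the A20-KO-labelled libraries stayed at 0.46 but missed the threshold (0.0717 and 0.0918), and without 1 library it ran from 0.36 to 0.51. TAX1BP1 in A20-OE against A20-WT missed it under total reads (0.37), only 2 groups (0.43) and no trend (0.43), with 0.34 to 0.57 without 1 library. TNFAIP3 in the A20-KO-labelled libraries against A20-WT missed it with only 2 groups (0.95), was at 0.56 with a pseudocount of 1, and ran from 0.75 to 1.25 without 1 library. Without 1 library ITCH in A20-OE against the A20-KO-labelled libraries ran from 0.89 to 1.20, RNF11 in A20-OE against A20-WT from 0.44 to 0.54, and TAX1BP1 in the A20-KO-labelled libraries against A20-WT from 0.10 to 0.34. OTULIN in the A20-KO-labelled libraries against A20-WT passed with limma-voom (-0.49), and at a mean FPKM of at least 1 (-0.48), and TNIP2 in A20-OE against A20-WT under total reads (-0.36).

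Changes of sign came only in differences that never passed, each on leaving out a library. In the A20-KO-labelled libraries against A20-WT the ranges were -0.0867 to 0.0453 for CYLD, -0.170 to 0.0700 for OTUD7B (0.0166 without A20-WT replicate 2) and -0.146 to 0.0336 for TNIP2. In A20-OE against the A20-KO-labelled libraries they were -0.10 to 0.0316 for CYLD and -0.0548 to 0.208 for OTULIN.

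The replicate numbers paired the libraries weakly at most. Deviations from the group means correlated between -0.027 and 0.121 for the same number (mean 0.0367, 9 pairs). For different numbers they correlated between -0.131 and 0.0722 (mean -0.0183), and 4 of the 9 libraries correlated best with their own number. For replicate 3, r was 0.0976 between A20-WT and the A20-KO-labelled group and 0.0449 between A20-WT and A20-OE. Between the A20-KO-labelled group and A20-OE it was 0.121. For replicate 1, r ran from -0.027 to 0.00362. With the replicate block, the genes that passed numbered 5602, 2577 and 7348 in the A20-KO-labelled libraries against A20-WT, A20-OE against those libraries and A20-OE against A20-WT, beside 4816, 1940 and 6735 without it. The block added calls for OTULIN (-0.48 and -0.37 in the A20-KO-labelled libraries and in A20-OE, against A20-WT), RNF11 (0.36) in A20-OE against the A20-KO-labelled libraries, TNIP1 (0.27) in those libraries against A20-WT, and TNIP2 (-0.29) in A20-OE against A20-WT.

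Only 2 groups gave 3060 genes in the A20-KO-labelled libraries against A20-WT, and no filter and no trend gave 1222 and 1224 in A20-OE against those libraries. Past the 2-fold threshold, a pseudocount of 1 gave 472, 155 and 976 genes and a mean FPKM of at least 1 gave 931, 289 and 1555, beside 1512, 517 and 2571. The 9 listed genes in A20-OE against the A20-KO-labelled libraries became 14 with the replicate block and 14 with limma-voom. Leaving out 1 library gave 3110 to 4964 (lowest without replicate 1 of the A20-KO-labelled group), 454 to 3237 and 4828 to 7000 genes that passed, 1186 to 1765, 242 to 612 and 2266 to 2568 past the 2-fold threshold, and 13 to 16, 3 to 16 and 18 to 27 listed genes. In A20-OE against the A20-KO-labelled libraries the genes that passed numbered 3237 without A20-WT replicate 1, 1161 without A20-WT replicate 2, 613, 1169 and 923 without replicates 1, 2 and 3 of the A20-KO-labelled group, and 454, 529 and 937 without A20-OE replicates 1, 2 and 3. Total-read scaling moved the share of passing genes that were higher from 49.4% to 34.1% in A20-OE against the A20-KO-labelled libraries, and from 50.4% to 44.3% against A20-WT. Median-of-ratios scaling left the values as deposited, so that alternative repeats the main fit and does not test a call. In the simulated comparison of the A20-KO-labelled libraries with A20-WT, 68 of 100 changes of 2-fold were recovered, among well-covered genes with a fixed spread. Smaller changes and the other comparisons were not simulated.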
